A study of Homo sapiens with 15 samples.

Results

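CAL51 is a human breast cancer cell line, and the comparison described here is that of 3 arrays of cells kept for 48 h in 0.4 µM doxorubicin with 3 arrays of naive cells, which received no drug. Both groups were the parental line, and the 3 arrays of each are labelled as separate biological samples. Drug was added to flasks of cells that had reached 50% confluency. All 41091 of the 54675 probe sets (the array's groups of short probes for 1 transcript) that name 1 gene symbol were used, which gave 19775 genes, each read by its brightest probe set. The 6 arrays belong to a series of 15. Its other arrays hold CAL51 kept for 24 h in the same 0.4 µM doxorubicin (3 arrays) and a doxorubicin-resistant derivative, with or without a further dose. The 24 h CAL51 arrays are used below to say where the later response differed from the earlier one. No time in culture is labelled for the naive arrays, and the series holds no untreated CAL51 labelled 24 h or 48 h. Effects of the drug and of time or density in culture therefore cannot be told apart in either comparison. The error given with each value comes from the spread between cultures on all 15 arrays. It is pooled over groups and both lines and moderated across genes, so it is not the spread of the 6 arrays alone.

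Doxorubicin is an anthracycline that intercalates into DNA and traps topoisomerase II on it with the strands cut. The broken DNA activates p53, a transcription factor that turns on genes for arrest, repair and death, among them the kinase inhibitor p21. p21 keeps RB-family proteins unphosphorylated, and with E2F and MuvB partners these shut the genes of replication and of mitosis, which carry E2F sites and the cell cycle homology region in their promoters.

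All levels and differences below are on a log2 scale, where a difference of 1 is a 2-fold change, and each difference is the mean of the 3 arrays at 48 h minus the mean of the 3 untreated arrays, with its standard error from limma (written after ±; 3 arrays per group). A gene is called higher or lower when limma's p, adjusted over all 19775 genes by the Benjamini-Hochberg method, is under 0.05. By that rule 2071 genes were higher at 48 h, 10.5% of those tested, and 2206 were lower, 11.2%. The changes were uneven in size: 106 genes rose at least 2-fold and 8 fell at least 2-fold, and 9 rose at least 4-fold while 0 fell as far. The 8 genes at 2-fold or more lower became 3 without 48 h replicate 2, 5 without untreated replicate 1 and 13 without 48 h replicate 3. The median called gene rose by 0.37 or fell by 0.33. The 3 arrays at 48 h lay wholly above or below the 3 untreated ones for 33.6% of all genes, so an absence of overlap is common here and counts for little alone.

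Genes that a breast epithelial line should or should not use were compared between the groups. ESR1, PGR and ERBB2, the receptors whose absence defines a triple-negative tumour, were not called, with differences of -0.10, -0.03 and -0.11, and their levels on this platform cannot be ranked against those of other probe sets. With its most variable probe set in place of its brightest, ERBB2 was called lower, at -0.38. Vimentin, VIM, was 0.18 higher without a call, or 0.25 higher and called without untreated replicate 2, and KRT18, a keratin of simple epithelia, rose by 0.40. Of 8 blood cell markers and 8 endothelial markers 0 were called in either direction, although 1 blood cell marker passed without 48 h replicate 3. A marker present at the same level in both groups would also give no call. The identity of the cells was therefore not tested by these differences. Fibroblast markers are given with the mesenchymal genes below. Whether a group of transcripts fell because cells that carry them became fewer, or because each cell held less, cannot be told apart in bulk RNA.

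**Figure D1:**
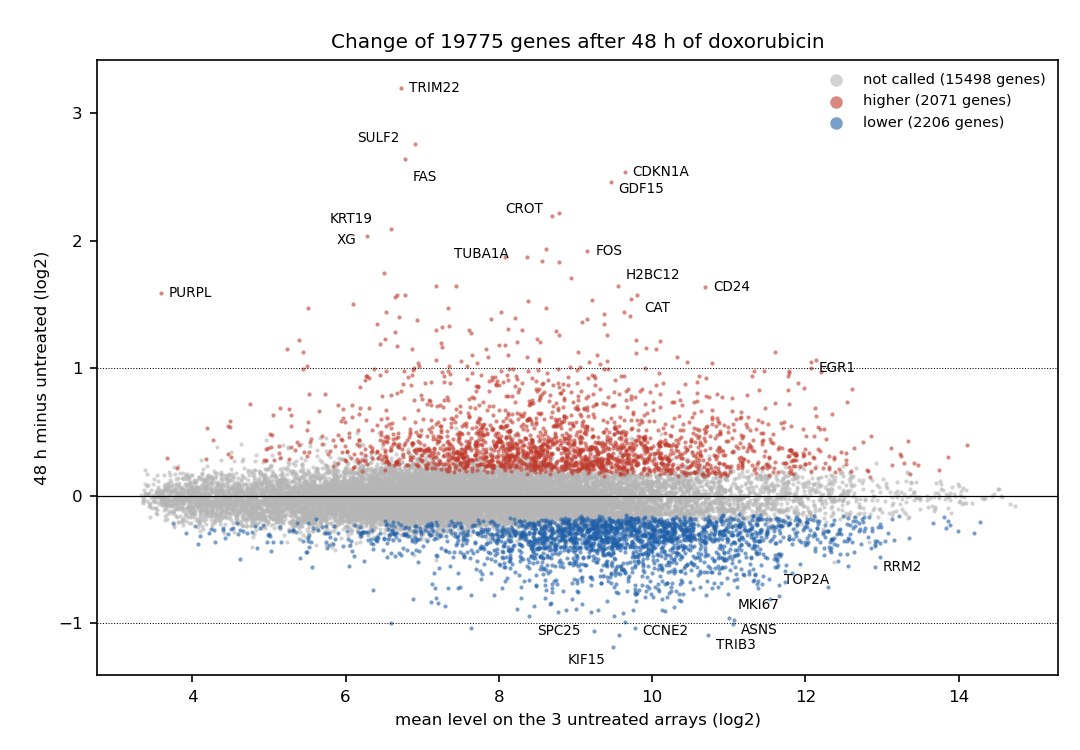
Mean level of each gene on the 3 untreated arrays (horizontal, log2) against its change at 48 h (vertical, log2), with genes called higher in red, lower in blue and not called in grey. Dotted lines mark a 2-fold change. The largest rises reach 3.20 for TRIM22 while the largest fall is -1.19 for KIF15.

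Genes that p53 is known to switch on led the response, though their dependence on p53 was not tested here. CDKN1A gave 9.69, 9.61 and 9.64 without drug and 12.24, 12.13 and 12.19 at 48 h, and it encodes p21, the inhibitor of cyclin-dependent kinases. The groups lay far apart, a rise of 2.54 ± 0.07 (5.83-fold, adjusted p = 1.46e-12). MDM2 was at 9.83, 9.66 and 9.65 in untreated cells and 11.16, 11.04 and 11.18 after 48 h, and its product is the ubiquitin ligase that limits p53. All 3 treated arrays were above all untreated ones, by 1.41 ± 0.09 on average, and 9 of its 10 probe sets were called higher. Of 22 p53 regulators 13 rose and 3 fell, with a median of 0.48 against -0.02 over all genes.

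TP53INP1 measured 8.77, 8.71 and 8.61 on the untreated arrays and 10.89, 10.86 and 10.92 on the treated ones, and its product promotes p53 phosphorylation and autophagy. ZMAT3, an RNA-binding protein, rose by 1.83 ± 0.06, and GADD45A, a stress sensor of arrested cells, by 1.22 ± 0.08. PURPL, a long noncoding RNA that p53 induces, rose by 1.59 ± 0.15, and its lowest treated array was well above its highest untreated one. MDM4, the partner of MDM2 that holds p53 inactive, went the other way and fell by 0.32; it was chosen after its values were seen.

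Metabolic and antioxidant genes linked to p53 mostly rose: 15 of 23 were called higher and 0 lower, with a median of 0.53. CROT read 8.69, 8.77 and 8.89 on the untreated arrays and 11.04, 10.97 and 10.99 at 48 h, and it encodes the peroxisomal carnitine octanoyltransferase. TP53I3, a quinone oxidoreductase, rose by 1.93 ± 0.06. SESN1, a sestrin that restrains mTORC1, rose by 1.47 ± 0.05, and TIGAR, which diverts sugar phosphates to the pentose pathway, by 1.44 ± 0.06. GPX1, the glutathione peroxidase of the cytosol, read 10.60, 10.62 and 10.61 on the untreated arrays and 11.60, 11.44 and 11.60 at 48 h, tight in both groups and 0.94 ± 0.06 apart.

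Death genes rose as a smaller group. FAS gave 6.43, 7.06 and 6.85 without drug and 9.32, 9.44 and 9.52 at 48 h, and it is the death receptor of the extrinsic path. The groups were separated by more than 2 log2 units, a rise of 2.64 ± 0.12 (6.24-fold), and all 5 of its probe sets were called higher. Of 22 death receptors and ligands 7 were higher and 3 lower, and the count of lower members was 1 without 48 h replicate 2 or untreated replicate 3. TNFRSF10B, the TRAIL receptor DR5, rose by 1.16 ± 0.06, the decoy receptor TNFRSF10D by 0.86 ± 0.07, and TNFSF9, a costimulatory ligand, by 0.93 ± 0.08.

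Among 30 BCL2 family genes, caspases and caspase inhibitors, 9 rose and 2 fell, with a median of 0.11. BAX was at 9.33, 9.54 and 9.35 in untreated cells and 10.53, 10.35 and 10.51 after 48 h, and its product perforates mitochondria. BIK, a BH3-only protein, rose by 0.88 ± 0.07, PERP, a membrane protein of p53-driven death and of desmosomes, by 0.87 ± 0.08, and PMAIP1, which encodes NOXA, by 0.69 ± 0.09. MCL1, an anti-death member, rose by 0.39 ± 0.07 on its brightest probe set and was not called, at 0.02, on its most variable one.

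A few genes of nucleotide excision repair and translesion synthesis rose while most other repair genes did not. DDB2 measured 9.01, 9.16 and 8.94 on the untreated arrays and 10.20, 10.11 and 10.19 on the treated ones, and it recognises damage in chromatin. XPC, the partner that finds distorted helices, rose by 0.82 ± 0.07, and POLH, the polymerase that copies across lesions, by 0.53 ± 0.07. Among all 27 genes of excision repair, mismatch repair and translesion synthesis these were the only 3 called higher in this fit. That is 11.1% of the list, about the 10.5% of all genes called higher. In the same list 6 were lower (22.2%, against 11.2% of all genes), led by the glycosylases NEIL3 at -0.59 ± 0.08 and UNG at -0.52 ± 0.10. The higher count was 5 with dim genes left out, with the mean of the probe sets or with the spread of each array as a covariate.

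**Figure D2:**
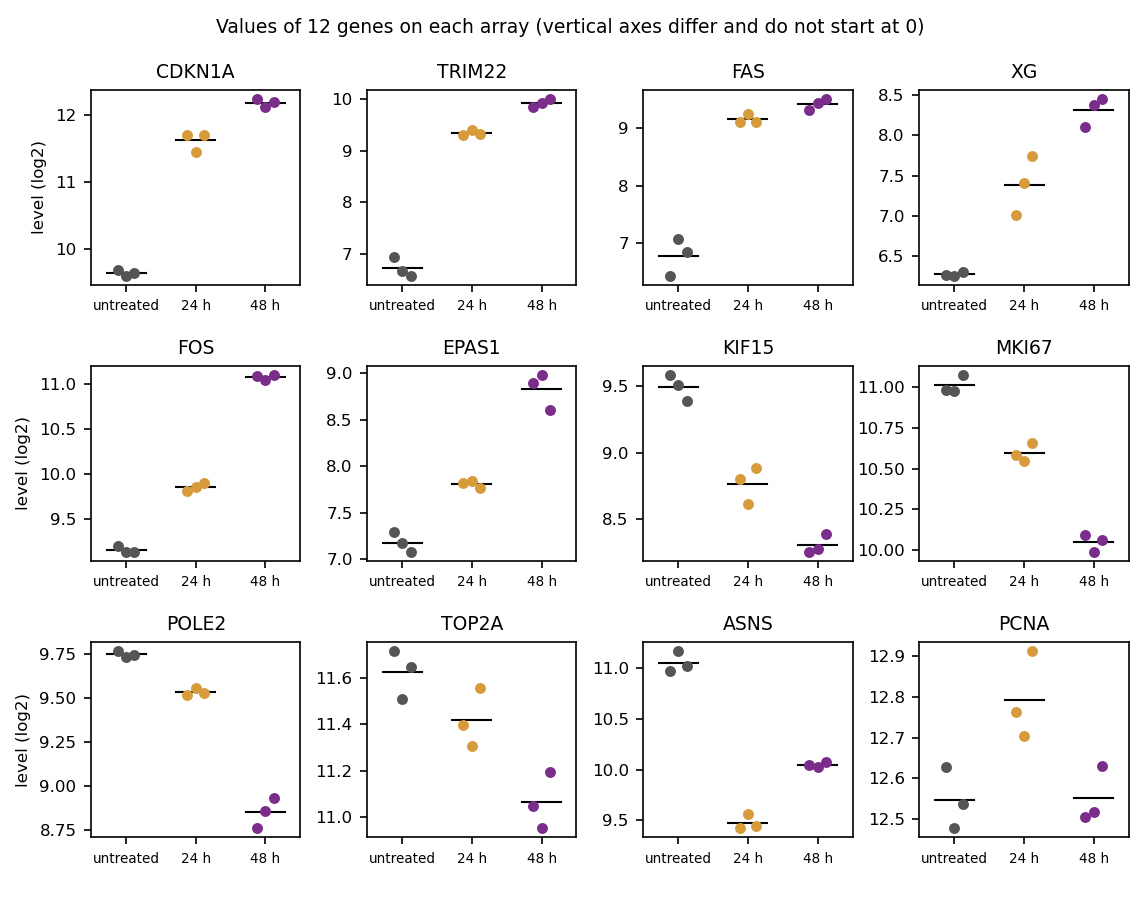
Level (log2) of 12 genes on each of the 3 untreated, 3 24 h and 3 48 h CAL51 arrays, 1 point per array, with the bar at the group mean. Vertical axes differ between panels. CDKN1A, TRIM22, FAS, XG, FOS and EPAS1 are higher at 48 h, KIF15, MKI67, POLE2, TOP2A and ASNS are lower, and PCNA at 48 h overlaps the untreated arrays.

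Several of the largest rises lay outside these lists. TRIM22 read 6.94, 6.66 and 6.57 on the untreated arrays and 9.84, 9.92 and 10.00 at 48 h. This was the largest change of any gene, 3.20 ± 0.08 or 9.18-fold, in a restriction factor of the interferon response that p53 also induces. SULF2 gave 6.56, 7.01 and 7.15 without drug and 9.62, 9.57 and 9.78 at 48 h, and it encodes a sulfatase that edits heparan sulfate at the cell surface. XG was at 6.27, 6.26 and 6.30 in untreated cells and 8.10, 8.38 and 8.45 after 48 h, and it codes for a blood group antigen on the red cell surface. The treated arrays of XG were closer to one another than to any untreated one, 2.03 ± 0.14 apart.

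SYTL1, a synaptotagmin-like protein of vesicle transport, rose by 1.87 ± 0.09, and EPPK1, epiplakin, which binds keratin filaments, by 1.84 ± 0.09. LACC1, a purine nucleoside enzyme known from macrophages, rose by 1.74 ± 0.12, and PIK3R3, a regulatory subunit of PI3-kinase, by 1.71 ± 0.06. CAT measured 9.84, 9.80 and 9.76 on the untreated arrays and 11.39, 11.33 and 11.40 on the treated ones; this is catalase, which breaks down hydrogen peroxide, and its groups lay 1.57 ± 0.06 apart with almost no spread within either.

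The drug's own target moved much less. TOP2A read 11.71, 11.51 and 11.65 on the untreated arrays and 11.05, 10.95 and 11.19 at 48 h. All 3 probe sets of TOP2A were called lower, and the fall was -0.56 ± 0.08 (adjusted p = 7.31e-05), so the transcript of the proliferation-linked isoform was at 0.679 of its untreated level. TOP2B gave 10.86, 10.55 and 10.63 without drug and 10.82, 10.86 and 11.06 at 48 h, and it is the isoform of resting cells. The TOP2B groups overlapped and its difference of 0.23 ± 0.10 was not called, although without untreated replicate 1 it was 0.32 and called, and it was called at 0.24 after a further quantile normalization and at 0.22 with the spread of each array as a covariate. TDP1, which removes topoisomerase adducts from DNA ends, fell by 0.49 ± 0.06. TOP1 was -0.16 ± 0.05 with an adjusted p of 0.0277, a call that was lost on leaving out any of the 6 arrays except 48 h replicate 3, with adjusted p from 0.0538 to 0.0933. In all, 4 of 9 topoisomerases and adduct phosphodiesterases were lower and 0 higher, although 1 was higher without untreated replicate 1.

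**Figure D3:**
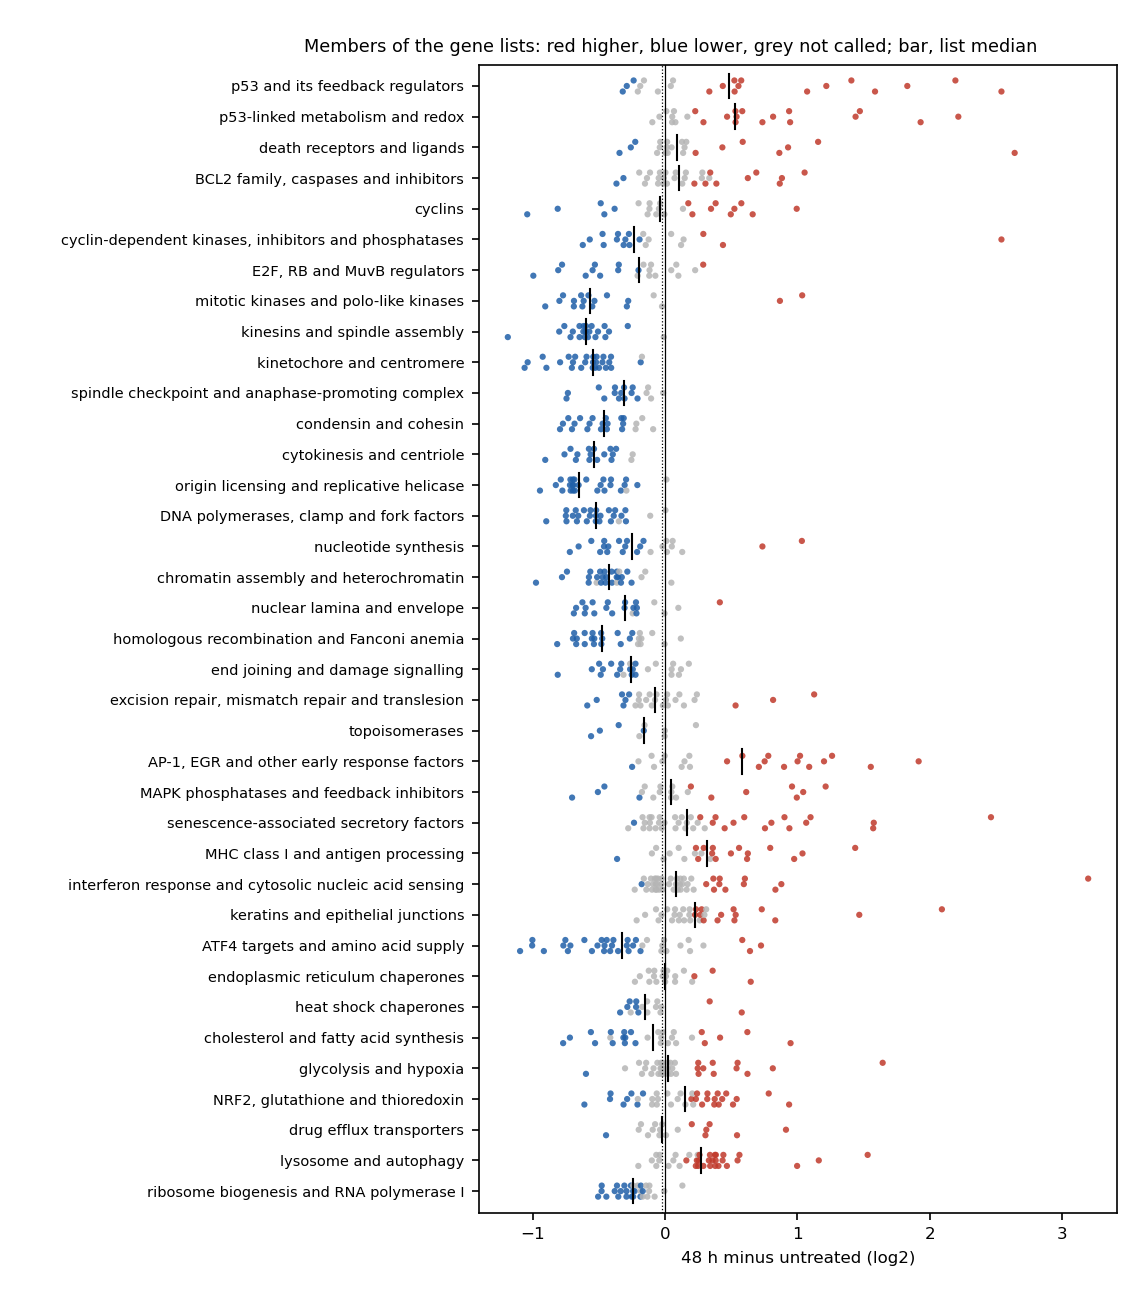
Change at 48 h (log2, horizontal) of every measured member of 37 gene lists, 1 point per gene, red if called higher, blue if called lower and grey if not called. The bar is the list's median and the dotted line the median of all genes, -0.02. Lists of mitosis and replication lie almost wholly to the left of 0, and the p53, early response and lysosome lists mostly to the right.

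Mitotic genes fell together. Of 22 kinesins and spindle factors 21 were lower and 0 higher, with a median of -0.60. KIF15 was at 9.58, 9.51 and 9.39 in untreated cells and 8.25, 8.27 and 8.39 after 48 h, and its product is a plus-end motor that helps hold the bipolar spindle. The groups lay apart by -1.19 ± 0.07, the largest fall of any gene called here. KIF18A, which dampens chromosome oscillation, fell by 0.80 ± 0.12, KIF11, the motor that separates the poles, by 0.76 ± 0.08, and KIF14, of the midbody, by 0.65 ± 0.11.

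Of 27 kinetochore and centromere genes 26 were lower, with a median of -0.54. SPC25 measured 9.25, 9.32 and 9.16 on the untreated arrays and 8.20, 8.02 and 8.33 on the treated ones, and with NUF2 it forms part of the NDC80 complex, which grips microtubules. NUF2 fell by 0.92 ± 0.11, CENPK by 0.90 ± 0.09, and SKA1, which follows shrinking microtubule ends, by 1.04 ± 0.16. Falls covered 18 of 22 condensin and cohesin genes (median -0.46), 15 of 17 genes of cytokinesis and centriole copying (median -0.54) and 13 of 17 genes of the spindle checkpoint and anaphase-promoting complex (median -0.31), with 0 higher in each. NCAPG, of condensin, fell by 0.79 ± 0.09, CEP55, of the midbody, by 0.67 ± 0.07, and FBXO5, the inhibitor of the anaphase-promoting complex, by 0.74 ± 0.05. MKI67 read 10.98, 10.97 and 11.07 on the untreated arrays and 10.09, 9.99 and 10.06 at 48 h, and it is the proliferation antigen that coats mitotic chromosomes. All 4 of its probe sets were called lower and the groups were -0.96 ± 0.06 apart.

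The kinases and cyclins did not all follow. Of 18 mitotic kinases and polo-like kinases 14 were lower and 2 higher. PLK1 gave 10.02, 10.29 and 10.29 without drug and 9.47, 9.50 and 9.57 at 48 h, and it drives mitotic entry. PLK2 was at 10.93, 10.65 and 10.78 in untreated cells and 11.86, 11.75 and 11.85 after 48 h, and it is induced by stress and by p53. The arrays separated in opposite directions, with PLK1 at -0.69 ± 0.07 and PLK2 at 1.04 ± 0.09. PLK4, the trigger of centriole duplication, fell by 0.91 ± 0.06, while PLK3, a stress kinase, rose by 0.87 ± 0.06. AURKB, the kinase of the chromosomal passenger complex, fell by 0.69 ± 0.07 and BUB1, of the spindle checkpoint, by 0.80 ± 0.09.

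Of 23 cyclins 9 were higher and 5 lower, so their median of -0.04 hides a split. CCNE2 measured 9.99, 9.70 and 9.63 on the untreated arrays and 8.69, 8.63 and 8.87 on the treated ones. The E-type cyclin partner CCNE1, which also opens S phase, read 9.14, 9.25 and 9.21 and then 9.54, 9.65 and 9.57. CCNE2 thus fell by 1.04 ± 0.11 while CCNE1 rose by 0.38 ± 0.06, with no overlap of groups for either. The mitotic cyclins CCNA2, CCNB2, CCNF and CCNB1 fell by 0.81, 0.49, 0.46 and 0.38. The D-type cyclins of G1, CCND1 and CCND2, rose by 0.66 ± 0.11 and 0.58 ± 0.12. CCNG2 and CCNG1, unconventional cyclins of arrested cells, rose by 1.00 ± 0.13 and 0.52 ± 0.05. With the mean of all probe sets of a gene in place of the brightest, CCNE1 (0.15), CCND2 (0.15) and CCNB2 (-0.09) were not called.

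Among 20 cyclin-dependent kinases, their inhibitors and phosphatases, 3 were higher and 11 lower, with 7 lower when 48 h replicate 1, 48 h replicate 2 or untreated replicate 1 was left out. CDC25C, which activates CDK1 at mitosis, fell by 0.62 ± 0.07 and CDC25A, its counterpart in G1 and S, by 0.47 ± 0.07. CDKN3, a phosphatase of CDK2 despite its name, fell by 0.57 ± 0.06. The E2F, RB and MuvB regulators that sit above these genes fell too, with 10 of 21 lower and 1 higher. E2F8 read 9.70, 9.65 and 9.58 on the untreated arrays and 8.56, 8.59 and 8.81 at 48 h, and it is an atypical E2F that represses its targets. E2F1, an activator, fell by 0.35 ± 0.07, LIN9, of the MuvB core, by 0.81 ± 0.08, RBL1, which encodes p107, by 0.78 ± 0.17, and FOXM1, the activator of late cell cycle genes, by 0.60 ± 0.06. E2F7, the other atypical member and a known p53 target, was not called, at -0.12 ± 0.10.

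**Figure D4:**
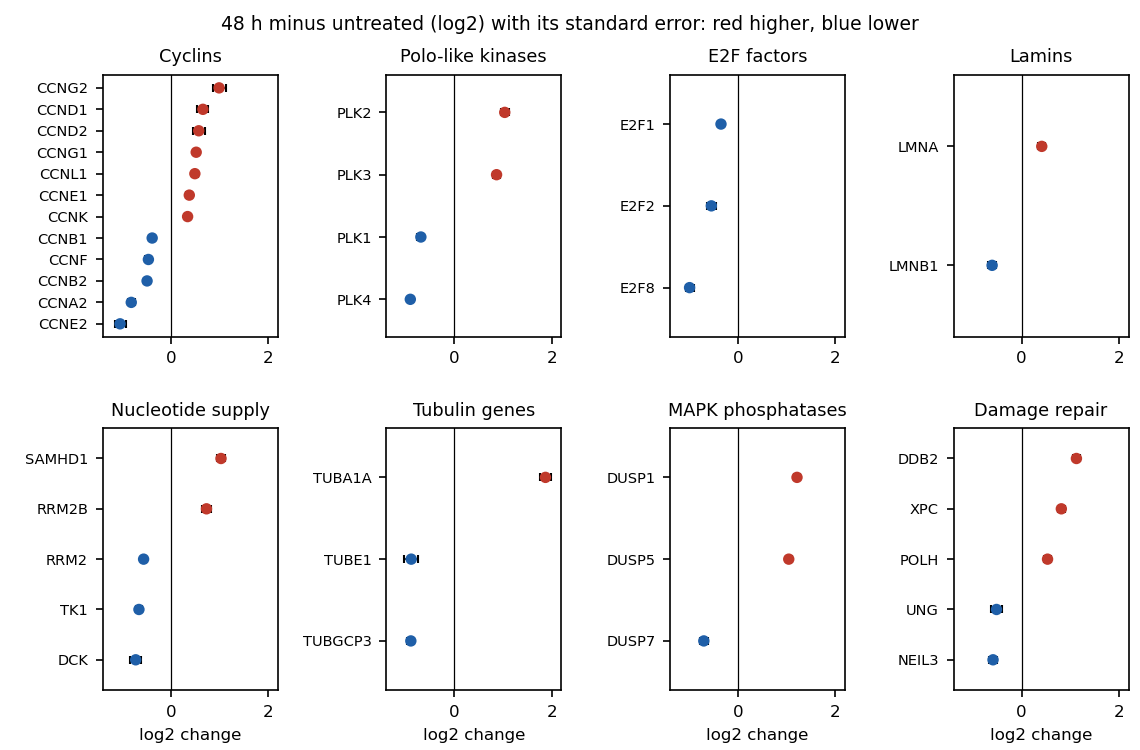
Change at 48 h (log2, horizontal) of members of 8 groups of related or functionally linked genes, each point with its standard error. Red is called higher and blue called lower. The tubulin panel includes TUBGCP3, of the gamma-tubulin ring. CCNG2, PLK2, LMNA, SAMHD1, TUBA1A, DUSP1 and DDB2 are to the right of 0. CCNE2, PLK4, LMNB1, DCK, TUBGCP3, DUSP7 and NEIL3, drawn in the same panels, are to the left. The 3 E2F factors drawn all lie to the left.

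Genes that license and fire replication origins fell in 25 of 27 cases, with a median of -0.65, and those of the polymerases, clamp and fork in 24 of 27, with a median of -0.52; 0 of either were higher. MCM8 gave 8.53, 8.34 and 8.31 without drug and 7.35, 7.22 and 7.77 at 48 h, and its product is a helicase of recombination and forks. MCM8 stood out for its time course, since at 24 h it read 8.35, 8.18 and 8.62 and overlapped the untreated arrays. MCM10, which activates the replicative helicase, fell by 0.82 ± 0.09, and MCM7, MCM5 and GINS2, parts of that helicase, by 0.79, 0.78 and 0.72. POLE2 was at 9.77, 9.74 and 9.75 in untreated cells and 8.76, 8.86 and 8.94 after 48 h, and it is a subunit of the leading-strand polymerase. The fall was -0.90 ± 0.06 with little spread in either group. PRIM1, the primase, fell by 0.75 ± 0.05, and POLA1, of the same complex, by 0.75 ± 0.07.

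PCNA, the sliding clamp and itself a p53 target, did not go with the polymerases it serves. PCNA measured 12.63, 12.48 and 12.54 on the untreated arrays and 12.50, 12.52 and 12.63 on the treated ones. The groups overlapped and the difference was 0.00 ± 0.06, and PCNA was chosen for mention after its values were seen.

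Promoters of several of these genes are printed because 2 sets of letters near their start are counted in the mitotic and replication lists below. The windows run from 250 bases before to 50 after the first start site that RefSeq lists for the gene (GRCh38.p14), in the direction of the gene, with every match to either set of letters in capitals. The cell cycle homology region was searched as TTTGAA on both strands, so it can appear as its complement, and the E2F site as TTCCCGC or TTGGCGC on both strands. For KIF15 the window is chr3:44761544-44761843 on the plus strand, for SPC25 chr2:168890381-168890680 on the minus strand and for MKI67 chr10:128126374-128126673 on the minus strand, and all 3 hold the homology region, KIF15 and SPC25 beside a match to the E2F letters. For POLE2 it is chr14:49688165-49688464 on the minus strand and for MCM8 chr20:5950402-5950701 on the plus strand, and both hold the E2F letters without the homology region.
KIF15: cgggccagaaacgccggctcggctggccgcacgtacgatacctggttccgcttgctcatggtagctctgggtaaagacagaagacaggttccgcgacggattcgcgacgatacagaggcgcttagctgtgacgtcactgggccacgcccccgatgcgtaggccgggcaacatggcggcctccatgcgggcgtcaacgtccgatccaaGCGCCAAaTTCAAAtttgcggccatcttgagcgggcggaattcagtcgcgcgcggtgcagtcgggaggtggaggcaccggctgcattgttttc
SPC25: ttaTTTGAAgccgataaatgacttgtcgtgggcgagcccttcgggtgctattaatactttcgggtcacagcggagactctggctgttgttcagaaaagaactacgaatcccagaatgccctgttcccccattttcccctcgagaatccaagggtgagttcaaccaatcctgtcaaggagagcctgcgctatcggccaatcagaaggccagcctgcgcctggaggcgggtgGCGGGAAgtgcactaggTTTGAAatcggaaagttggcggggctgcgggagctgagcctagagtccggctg
MKI67: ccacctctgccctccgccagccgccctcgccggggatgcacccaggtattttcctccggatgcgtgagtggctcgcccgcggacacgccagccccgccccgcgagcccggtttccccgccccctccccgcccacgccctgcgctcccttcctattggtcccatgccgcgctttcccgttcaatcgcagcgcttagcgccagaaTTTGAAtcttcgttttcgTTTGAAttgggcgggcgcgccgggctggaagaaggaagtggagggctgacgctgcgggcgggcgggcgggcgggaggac
POLE2: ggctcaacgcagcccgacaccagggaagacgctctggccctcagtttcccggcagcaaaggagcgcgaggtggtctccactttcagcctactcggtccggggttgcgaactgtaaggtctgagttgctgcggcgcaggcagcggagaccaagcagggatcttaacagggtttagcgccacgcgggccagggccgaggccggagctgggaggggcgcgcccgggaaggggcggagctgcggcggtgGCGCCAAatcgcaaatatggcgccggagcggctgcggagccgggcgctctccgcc
MCM8: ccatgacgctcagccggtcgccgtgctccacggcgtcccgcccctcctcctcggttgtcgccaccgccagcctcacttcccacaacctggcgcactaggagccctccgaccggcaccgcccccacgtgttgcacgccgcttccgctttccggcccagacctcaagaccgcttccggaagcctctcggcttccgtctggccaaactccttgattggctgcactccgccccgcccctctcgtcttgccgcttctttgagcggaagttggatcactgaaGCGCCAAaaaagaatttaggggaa

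Counting the start site as 1, with no position 0, the homology region begins at -35 in KIF15, at -247 and -3 in SPC25 and at -47 and -29 in MKI67. The E2F letters begin at -5 in POLE2, at 27 in MCM8, at -43 in KIF15 and at -20 in SPC25. Windows were at hand for 15384 genes, 77.8% of those measured, under the 80% at which a property of all measured genes would be fully covered, so shares over all genes describe the genes with a window; the 5 lists counted next each have windows for over 80% of their members. TTTGAA is in 11.9% of all windows but in 15 of 21 kinesin and spindle genes (71.4%), 11 of 16 cytokinesis and centriole genes (68.8%) and 12 of 22 kinetochore genes (54.5%). It is in 1 of 24 origin and helicase genes (4.2%) and 0 of 23 polymerase and fork genes. The E2F letters are in 12.2% of all windows, in 14 of 24 origin genes (58.3%) and in 12 of 23 polymerase genes (52.2%). In the mitotic lists they are in 6 of 16 cytokinesis genes (37.5%), 8 of 22 kinetochore genes (36.4%) and 4 of 21 kinesin genes (19.0%). Among all called genes the homology region is in 14.6% of those that fell and 7.5% of those that rose, and the E2F letters in 21.3% and 10.7%. Letters of a p53 half-site, the repeated unit of p53 sites, are in 6.0% of all windows and 6.4% of those of genes that rose. They are in 1 of 20 windows of the p53 metabolism list (5.0%) and 2 of 19 of the p53 regulator list (10.5%). These are counts of letters, with no evidence here of binding.

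**Figure D5:**
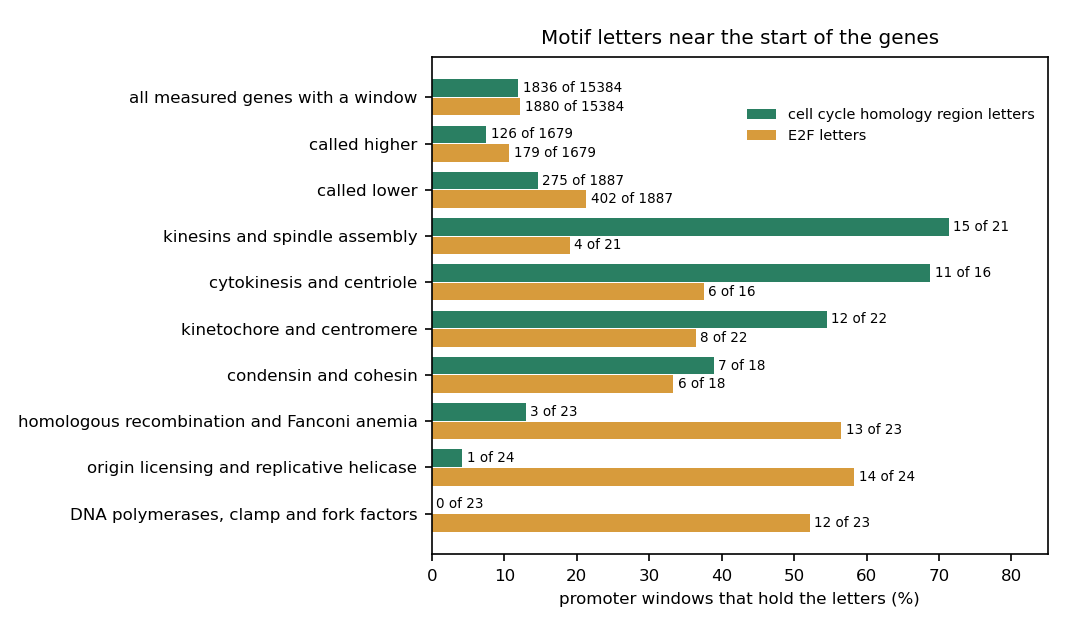
Share of promoter windows (%, horizontal) that hold the cell cycle homology region letters (green) or the E2F letters (orange), for all measured genes with a window, for genes called higher or lower and for 7 gene lists, with the counts beside the bars. Spindle and cytokinesis lists have the longest green bars, at 71.4% and 68.8%, and the origin list the longest orange one, at 58.3%.

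Genes of nucleotide supply mostly fell, with a few exceptions. RRM2 read 12.88, 12.96 and 12.89 on the untreated arrays and 12.37, 12.35 and 12.34 at 48 h, and it is the S-phase subunit of ribonucleotide reductase. RRM2B gave 8.36, 8.23 and 8.06 without drug and 8.88, 8.80 and 9.17 at 48 h, and it is the subunit that p53 induces. RRM2 fell by 0.56 ± 0.05 and RRM2B rose by 0.74 ± 0.09, both without overlap. SAMHD1 was at 9.42, 9.39 and 9.15 in untreated cells and 10.42, 10.22 and 10.42 after 48 h, and its product degrades deoxynucleotides. SAMHD1 rose by 1.03 ± 0.08, while the salvage kinases DCK and TK1 fell by 0.72 ± 0.12 and 0.65 ± 0.07. Across 24 genes of nucleotide synthesis 15 were lower (62.5%, against 11.2% of all genes) and 2 higher (8.3%, against 10.5%).

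Chromatin and the nuclear envelope genes fell as well: 22 of 28 genes of chromatin assembly and heterochromatin were lower and 0 higher, and 16 of 21 of the lamina, envelope and pores were lower and 1 higher. UHRF1 measured 11.12, 11.07 and 11.03 on the untreated arrays and 10.07, 10.05 and 10.17 on the treated ones, and it guides DNA methylation behind the fork. EZH2, the Polycomb methyltransferase, fell by 0.74 ± 0.09, ATAD2, a bromodomain ATPase, by 0.78 ± 0.08, and the histone chaperone ASF1B by 0.58 ± 0.06. LMNB1 read 10.95, 10.72 and 10.94 on the untreated arrays and 10.14, 10.31 and 10.34 at 48 h, and its product is lamin B1, whose loss is a known mark of senescent cells. LMNB1 fell by 0.61 ± 0.09 and TMPO, a lamin-binding protein, by 0.67 ± 0.07. The A-type lamin gene LMNA, chosen after its values were seen, rose by 0.41 ± 0.07.

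Double-strand break repair genes fell in number: 18 of 26 of homologous recombination and the Fanconi pathway (median -0.48) and 14 of 24 of end joining and damage signalling (median -0.26), with 0 higher in either. CHEK1 gave 9.11, 8.90 and 8.84 without drug and 8.07, 8.11 and 8.23 at 48 h, and it is the checkpoint kinase below ATR. BRCA1 fell by 0.67 ± 0.07, RAD51AP1, which helps strand invasion, by 0.81 ± 0.12, the helicase BLM by 0.69 ± 0.06, FANCI by 0.67 ± 0.07 and PARP1, the sensor of broken strands, by 0.50 ± 0.06. The E2F letters are in 13 of 23 windows of the recombination list (56.5%), close to the share in the origin list.

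Other genes among the 25 lowest called ones have varied roles. MND1, a partner of recombinases in homologous pairing, fell by 0.94 ± 0.09, PARPBP, a regulator of recombination, by 0.91 ± 0.10 and GAS2L3, which links actin and microtubules in division, by 0.90 ± 0.09. TUBGCP3, of the gamma-tubulin ring that seeds microtubules, fell by 0.89 ± 0.07 and TUBE1, epsilon-tubulin of centrioles, by 0.89 ± 0.15. ATP8A1 was at 9.83, 9.40 and 9.49 in untreated cells and 8.34, 8.39 and 8.72 after 48 h, and it encodes a flippase that moves phospholipids between membrane leaflets. EXOSC8, a subunit of the RNA exosome, fell by 0.87 ± 0.07 and ZBTB2, a zinc-finger repressor, by 0.89 ± 0.08.

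Of 27 genes grouped by tubulin symbols, 1 rose and 7 fell. The group holds TUBGCP3, of the gamma-tubulin ring, as well as tubulins. TUBA1A was the only one that rose. TUBA1A measured 8.37, 8.39 and 8.34 on the untreated arrays and 10.11, 10.34 and 10.26 on the treated ones, and its product is an alpha-tubulin. The groups were 1.87 ± 0.11 apart, though the alpha-tubulin genes are near-identical and a probe set can read a relative's transcript.

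Early response factors, which cells switch on within minutes of a signal, were higher at 48 h in 13 of 23 cases with 1 lower, and their median of 0.58 was the highest of all the lists. FOS read 9.20, 9.14 and 9.13 on the untreated arrays and 11.09, 11.04 and 11.09 at 48 h, and at 24 h it read 9.81, 9.86 and 9.90. Its 48 h arrays were above the untreated and the 24 h CAL51 arrays, by 1.92 ± 0.05 against the untreated ones. JUNB gave 8.26, 8.31 and 8.12 without drug and 9.51, 9.31 and 9.47 at 48 h, and it is another AP-1 subunit. EGR1, a zinc-finger factor below MAPK signalling, rose by 1.00 ± 0.07, EGR3 by 1.56 ± 0.14, FOSB by 1.02 ± 0.08, JUN by 0.90 ± 0.08, KLF10 by 1.09 ± 0.14 and IER5 by 1.26 ± 0.07.

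MAPK phosphatases and other feedback inhibitors split, with 7 of 21 higher and 4 lower. DUSP1 was at 10.10, 10.14 and 10.06 in untreated cells and 11.37, 11.29 and 11.29 after 48 h, and DUSP5, which acts on nuclear ERK, rose by 1.04 ± 0.06. DUSP7 measured 8.72, 8.56 and 8.54 on the untreated arrays and 7.83, 7.83 and 8.05 on the treated ones. DUSP1 thus rose by 1.21 ± 0.06 and the cytoplasmic ERK phosphatase DUSP7 fell by 0.70 ± 0.08. PHLDA3, a p53-induced inhibitor of AKT, rose by 1.00 ± 0.06 and RGS2, a brake on G protein signals, by 0.96 ± 0.08.

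Secreted factors of senescent cells were higher in 15 of 39 cases and lower in 1, with 0 lower without 48 h replicates 1 or 3 or untreated replicates 2 or 3 and 2 lower without 48 h replicate 2. GDF15 read 9.47, 9.51 and 9.42 on the untreated arrays and 11.98, 11.86 and 11.95 at 48 h, and it is a stress hormone of the TGF-beta family. The rise was 2.46 ± 0.07, although 1 of its 3 probe sets was called. CXCL2 gave 6.73, 6.45 and 6.85 without drug and 8.18, 8.10 and 8.48 at 48 h, and it is a chemokine for neutrophils. Of the 3 probe sets of CXCL2, 1 was called. KITLG, the ligand of KIT, rose by 1.57 ± 0.10, STC1 by 1.10 ± 0.07, IGFBP7, which binds insulin-like growth factors, by 1.07 ± 0.06, and TIMP1, an inhibitor of metalloproteinases, by 0.94 ± 0.07.

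Antigen presentation rose in 14 of 24 genes and fell in 1, with a median of 0.32. TAP1 was at 7.97, 8.10 and 8.02 in untreated cells and 9.52, 9.43 and 9.46 after 48 h, and it forms part of the peptide pump of the endoplasmic reticulum. The immunoproteasome subunits PSMB8 and PSMB9 rose by 1.04 ± 0.11 and 0.98 ± 0.12, while 10 of 34 proteasome subunits in all were lower and those 2 were the only ones higher. HLA-C rose by 0.80 ± 0.05 and B2M, the light chain, by 0.62 ± 0.07. HLA genes are near-identical in sequence, so a probe set can read several of them.

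The wider interferon response was partial: 11 of 45 genes of interferon response and nucleic acid sensing were higher and 1 lower, with a median of 0.08, with 0 lower on leaving out any array except untreated replicate 3. ISG15 measured 9.64, 9.73 and 9.69 on the untreated arrays and 10.62, 10.45 and 10.50 on the treated ones, and it is a ubiquitin-like modifier. APOBEC3C, a cytidine deaminase, rose by 0.88 ± 0.08 and STING1, the adaptor of cytosolic DNA sensing, by 0.60 ± 0.06. OAS1, OAS2, OAS3 and MX2, classical interferon targets chosen after their values were seen, were not called, with differences from -0.23 to -0.13, though OAS2 was called lower on its most variable probe set, at -0.29, and on the mean of its probe sets, at -0.19. Of 56 tripartite motif genes 6 rose (10.7%) and 2 fell (3.6%), against 10.5% and 11.2% of all genes. Rises in this family were thus about as frequent as among all genes. Beside TRIM22 the next largest rise was that of TRIM5, another restriction factor, at 1.44 ± 0.15.

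Epithelial genes rose without any called lower, 14 of 33 keratins and junction genes, with a median of 0.23. KRT19 read 6.46, 6.69 and 6.62 on the untreated arrays and 8.67, 8.58 and 8.80 at 48 h, and it is a keratin of simple epithelia. CDH1 gave 7.27, 7.35 and 7.39 without drug and 8.66, 8.78 and 8.98 at 48 h, and it is E-cadherin. Both sets of treated arrays were above all untreated ones, with rises of 2.09 ± 0.07 and 1.47 ± 0.15; 1 of the 2 probe sets of KRT19 was called. KRT8, the partner of KRT18, rose by 0.73 ± 0.06 and ELF3, an epithelial transcription factor, by 0.83 ± 0.09. CD24 was at 10.74, 10.71 and 10.63 in untreated cells and 12.34, 12.27 and 12.37 after 48 h, and it is a surface glycoprotein used to sort mammary cells. All 6 of its probe sets were called higher.

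Of 21 mesenchymal and cytoskeletal genes 6 rose and 1 fell, and 2 fell without untreated replicate 2. S100A4 rose by 0.94 ± 0.05, while ZEB1, a repressor of E-cadherin, fell by 0.48 ± 0.09. The S100 family of calcium-binding proteins rose in 10 of 17 cases with 0 falling, led by S100A6 at 0.97 ± 0.06 and S100P at 0.91 ± 0.06. CD44, the hyaluronan receptor, rose by 1.53 ± 0.09, with 8 of its 13 probe sets called; it was chosen after its values were seen. Of 13 luminal breast genes 4 rose and 0 fell, with 1 lower without untreated replicate 2, and AGR2, a disulfide isomerase of luminal cells, led at 0.81 ± 0.05. Of 9 fibroblast markers 2 rose, PDGFRB by 0.41 ± 0.09 and COL1A2 by 0.31 ± 0.06, and 1 fell, a call lost without any of 48 h replicates 1 and 2 and untreated replicates 1 and 2, which left 0; their part in the mesenchymal values was not tested.

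Signalling receptors changed little as groups. Of 20 integrin genes 6 rose and 0 fell, with 3 higher without 48 h replicate 3 or untreated replicate 3, and ITGB4 rose by 0.47 ± 0.07. Of 29 receptor tyrosine kinases and ephrin receptors 6 rose and 3 fell, with EPHA2 highest at 0.93 ± 0.10. Of 34 Notch, Wnt and Hedgehog genes 5 rose and 7 fell, and 3 rose without 48 h replicate 1, 48 h replicate 3 or untreated replicate 2, and 2 without untreated replicate 3. HES1, a Notch target, rose by 0.91 ± 0.07 and GLI2, a Hedgehog factor, fell by 0.31 ± 0.06. Of 34 genes of TGF-beta and BMP signalling 6 rose and 2 fell, with SMURF1, a ubiquitin ligase for receptors, at 0.60 ± 0.09.

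Amino acid supply genes under ATF4 fell in most cases. Of 38 members 25 were lower and 3 higher, or 5 higher without untreated replicate 1, and the median was -0.32. TRIB3 measured 10.78, 10.65 and 10.77 on the untreated arrays and 9.57, 9.63 and 9.71 on the treated ones, and it is a pseudokinase of the stress response. ASNS read 10.98, 11.17 and 11.02 on the untreated arrays and 10.05, 10.03 and 10.07 at 48 h, and it makes asparagine. Of the 2 probe sets of ASNS, 1 was called. ASNS at 24 h read 9.42, 9.57 and 9.44, below its 48 h arrays, and the later arrays were 0.57 above the earlier ones (adjusted p = 0.000108) while still 1.00 ± 0.07 under the untreated ones. CHAC1 gave 9.22, 9.29 and 9.08 without drug and 8.21, 8.28 and 8.36 at 48 h, and it degrades glutathione.

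The ATF4 list shares a pattern with time: 14 of its 38 members were higher at 48 h than at 24 h and 1 was lower, where 4.37% and 5.34% of all genes were higher and lower. INHBE, a secreted activin subunit, fell by 1.00 ± 0.13, SLC7A1, the arginine carrier, by 0.77 ± 0.05, and CEBPG, a partner of ATF4, by 0.75 ± 0.07. ATF4 itself, chosen after its values were seen, read 12.19, 12.19 and 12.31 untreated, 11.53, 11.46 and 11.54 at 24 h and 11.97, 11.90 and 11.98 at 48 h, between the other groups at the later time.

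The joint element of C/EBP and ATF factors, searched as TGATGCAA or TGATGAAA on both strands, is in 1.4% of all windows and in 7 of the 31 windows of the ATF4 list (22.6%). Those of CHAC1, at chr15:40953221-40953520 on the plus strand, and of ASNS, at chr7:97872359-97872658 on the minus strand, are printed with it in capitals because both genes are among the largest falls.
CHAC1: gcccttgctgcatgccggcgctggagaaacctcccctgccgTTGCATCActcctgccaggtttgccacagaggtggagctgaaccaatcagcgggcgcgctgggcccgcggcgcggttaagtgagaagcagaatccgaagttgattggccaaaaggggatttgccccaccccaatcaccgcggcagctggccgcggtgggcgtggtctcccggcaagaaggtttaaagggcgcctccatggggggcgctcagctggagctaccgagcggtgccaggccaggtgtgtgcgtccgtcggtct
ASNS: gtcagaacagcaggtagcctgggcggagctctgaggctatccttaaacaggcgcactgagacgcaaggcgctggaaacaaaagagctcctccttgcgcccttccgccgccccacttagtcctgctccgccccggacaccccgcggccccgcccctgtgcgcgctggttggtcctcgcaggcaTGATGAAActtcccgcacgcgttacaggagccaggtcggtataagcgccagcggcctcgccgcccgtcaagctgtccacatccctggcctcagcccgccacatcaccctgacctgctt

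The element begins at -209 in CHAC1, on the opposite strand, and at -68 in ASNS.

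Chaperones of the endoplasmic reticulum were mostly not called against untreated cells, with 3 of 19 higher, 0 lower and a median of 0.00, and 8 of them were higher at 48 h than at 24 h. Leaving out untreated replicate 2 gave 1 higher and 1 lower, and leaving out untreated replicate 1 gave 1 lower. XBP1, the factor of the unfolded protein response, rose by 0.65 ± 0.07. Of their windows 18 of 19 hold CCAAT (94.7%), the box bound by NF-Y, against 36.1% of all. CCAAT is also common in other lists, in 16 of 21 kinesin windows (76.2%), 15 of 22 kinetochore windows (68.2%) and 17 of 25 cholesterol windows (68.0%). It is in 2 of 14 heat shock windows (14.3%). Of 16 heat shock chaperones 2 rose and 6 fell, with CRYAB, a small chaperone, at 0.58 ± 0.10 and HSPA9, of mitochondria, at -0.34 ± 0.05.

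Of 28 genes of cholesterol and fatty acid synthesis and handling 12 were lower and 5 higher. INSIG1 was at 10.04, 9.55 and 9.72 in untreated cells and 8.97, 8.90 and 9.14 after 48 h, and it holds back sterol synthesis. FASN, fatty acid synthase, fell by 0.72 ± 0.08 and DHCR7, of the last steps to cholesterol, by 0.53 ± 0.06. ABCA1, the cholesterol exporter, rose by 0.95 ± 0.11, and MYLIP, which degrades lipoprotein receptors, by 0.62 ± 0.08.

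Among 36 genes of glycolysis and hypoxia 11 rose and 1 fell around a median of 0.02. EPAS1 measured 7.29, 7.17 and 7.08 on the untreated arrays and 8.89, 8.98 and 8.61 on the treated ones, and it encodes HIF-2 alpha. At 24 h EPAS1 read 7.81, 7.84 and 7.76, and the 48 h arrays were 1.02 above these and 1.64 ± 0.11 above the untreated ones. The glucose carriers SLC2A3 and SLC2A1 rose by 0.81 ± 0.16 and 0.54 ± 0.06, and HK2, the hexokinase of growing cells, fell by 0.60 ± 0.09. The wider family of 316 solute carriers moved little, with 40 higher, 35 lower and a median of 0.01, and SLC2A12, another glucose carrier, had its largest rise, 1.20 ± 0.07.

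Redox genes moved in both directions. Of 37 genes of the NRF2, glutathione and thioredoxin systems 16 were higher and 8 lower, with 5 lower without 48 h replicate 2 or untreated replicate 1. The glutathione-using enzymes GSTT1, GSTM3 and GSTA4 rose by 0.78, 0.54 and 0.46. SLC7A11 read 9.96, 10.02 and 10.01 on the untreated arrays and 9.40, 9.35 and 9.42 at 48 h, and it imports the cystine from which glutathione is made. Its 3 probe sets were all called lower, and it fell by 0.61 ± 0.07. NQO1, a reference target of NRF2 chosen after its values were seen, fell by 0.41 ± 0.06. Of 9 metallothioneins 5 were lower and 0 higher, led by MT1M at -0.54 ± 0.10, with 2 lower without 48 h replicate 2 and 3 lower without untreated replicate 3, and these near-identical genes can share probes.

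Genes that handle the drug itself moved modestly. ABCB1 gave 5.64, 5.92 and 5.72 without drug and 5.74, 5.65 and 5.77 at 48 h, and it encodes P-glycoprotein, the pump that exports anthracyclines. The groups overlapped, and the difference of -0.04 ± 0.09 was not called. All these ABCB1 values lie under 7.74, the median untreated level of all genes. An unchanged transcript and one too low to detect cannot be told apart at such levels. Of 17 efflux transporters and vault genes 6 rose and 1 fell, with 3 higher without untreated replicate 2. ABCG2 was at 7.32, 7.22 and 7.15 in untreated cells and 7.67, 7.89 and 7.75 after 48 h, and it is a second anthracycline pump; it rose by 0.54 ± 0.09, and MVP, the major vault protein, by 0.91 ± 0.09. Of 10 carbonyl and aldo-keto reductases, which reduce the drug to its alcohol, 3 rose and 0 fell, with AKR1C1 at 0.44 ± 0.08 and its near-identical relative AKR1C2 at 0.32 ± 0.06.

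Lysosome and autophagy genes rose in 24 of 36 cases, with 0 lower, or 1 lower without 48 h replicate 2, and a median of 0.28. DRAM1 measured 9.23, 9.19 and 9.24 on the untreated arrays and 10.75, 10.70 and 10.80 on the treated ones, and it is a lysosomal protein that p53 induces. GABARAPL1 read 7.09, 7.53 and 7.13 on the untreated arrays and 8.59, 8.24 and 8.41 at 48 h, and it is of the family that decorates autophagosomes. WIPI1, which marks their precursors, rose by 1.00 ± 0.11, PSAP, the precursor of the saposins, by 0.56 ± 0.08, and TPP1, a lysosomal peptidase, by 0.55 ± 0.05.

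Ribosome production went the other way, with 19 of 30 genes of ribosome biogenesis and RNA polymerase I lower and 0 higher, and a median of -0.24. UTP20 gave 9.26, 9.22 and 9.19 without drug and 8.66, 8.73 and 8.77 at 48 h, and it is a part of the early rRNA-processing complex. UTP20 at 24 h read 9.30, 9.19 and 9.38, overlapping its untreated range, and at 48 h it fell by 0.51 ± 0.07 with no overlap. HEATR1 and NAT10, of the same machinery, fell by 0.48 ± 0.07 and 0.48 ± 0.06. The genes of the cytosolic ribosomal proteins did not follow, with 3 of 60 higher, 3 lower and a median of -0.01, and the 3 lower calls were all lost without 48 h replicate 2 or untreated replicates 1 or 3. Their one large change was in RPS27L, a p53-induced relative of RPS27, at 0.84 ± 0.07.

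Mitochondria gave a mixed picture. Of 93 subunits of the respiratory chain and ATP synthase 22 rose and 2 fell, with 0 lower without 48 h replicates 1 or 2 or untreated replicate 2 and 1 lower without untreated replicate 1, and the median was 0.11. ATP5IF1, the inhibitor of the ATP synthase, led with 0.54 ± 0.09. Of 74 mitochondrial ribosomal proteins 17 fell and 2 rose, with 8 lower without 48 h replicate 2, 10 lower without untreated replicate 2 and 1 higher without 48 h replicate 1 or untreated replicate 3. MRPL1 fell the most, by 0.57 ± 0.07.

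Histone genes rose in a few cases. Of 48 genes 8 were higher and 4 lower, with 2 lower without 48 h replicates 2 or 3 or untreated replicate 2. H2BC12 was at 9.49, 9.56 and 9.60 in untreated cells and 11.24, 11.19 and 11.17 after 48 h. H2AC6 rose by 1.65 ± 0.12 and the linker histone H1-2 by 1.30 ± 0.10, with H2BC4 at 1.02 ± 0.11. The median of the family was 0.04, and since these genes are near-identical copies a probe set can read more than 1 of them.

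The remaining lists had medians near the -0.02 of all genes: -0.02 for circadian and growth-arrest factors, -0.02 for ZNF genes and 0.04 for collagens. Of all genes 10.5% were higher and 11.2% lower. The shares were 22.7% and 18.2% for the circadian list, 6.7% and 9.4% for ZNF genes, and 20.9% and 4.7% for collagens. Of 22 circadian and growth-arrest factors 5 rose, led by MXD1, a MYC antagonist, at 0.87 ± 0.10, and 4 fell, led by PER2 at -0.55 ± 0.12; the lower count was 1 without 48 h replicate 1 and 2 without 48 h replicate 2 or untreated replicate 1. Of 466 ZNF zinc finger genes 31 rose and 44 fell, and 19 rose without 48 h replicate 3 or untreated replicate 3. Of 43 collagens 9 rose and 2 fell, with 0 to 4 lower on leaving out single arrays (0 without 48 h replicate 1 or untreated replicate 3, 1 without untreated replicate 2 and 4 without 48 h replicate 2), and COL4A5, of basement membranes, had the largest rise at 1.01 ± 0.09.

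The later response was set against the earlier one by the direct contrast of the 48 h with the 24 h arrays. It called 864 genes higher and 1056 lower at the later time. CDKN1A was 0.56 higher at 48 h than at 24 h (adjusted p = 0.000152), GDF15 0.81 and FOS 1.22, while MDM2 at 0.15 and FAS at 0.26 were not called different. Among the falls, MKI67 was at -0.55, POLE2 at -0.68 and MCM8 at -0.94 against 24 h, and CHAC1, at 0.07, was not called. This count rests on the spread pooled over all groups: with only the 6 arrays compared, 565 genes in all were called in place of 1920, and without 48 h replicate 1 it was 1236.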

How the data were processed

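RNA from 15 cultures was read on 1-colour Affymetrix-type arrays of 54675 probe sets, with total RNA extracted on RNeasy columns and labelled as biotin cRNA by in vitro transcription, per the labels. The authors deposited 1 table of log2 values. The submitters' processing notes name RMA, without a version, and the log base is inferred from the range, 3.08 to 14.8. RMA is known to correct background, set all arrays to 1 distribution and fit 1 value per probe set, so a change shared by all genes would not be seen; array medians ran from 6.95 to 7.03. Scanner files were not analysed here, so signal over background is unknown.

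Probe sets were named from GEO's platform annotation: 41091 held 1 symbol, 1801 several and 11777 none, with 62 controls left out, and 41037 had a gene ID in the RefSeq table, which changed 0 symbols. The probe set with the highest mean over all arrays stood for each gene. Of 19775 genes 10523 had several, and 34 called genes had another probe set called the opposite way. The count of called probe sets is not given for every gene named. It was 1 of 2 for COL4A5, FASN, GSTM3 and GSTA4, 1 of 3 for HK2, GINS2 and LIN9, and 1 of 5 for ITGB4, among others. Some genes are not reported here.

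Groups came from the source labels. limma 3.58.1 in R 4.3.3 was fitted to all 15 arrays with 1 mean per group (10 residual degrees of freedom), and p was adjusted by Benjamini-Hochberg over all genes, with a threshold of 0.05; the script was tested on simulated data. The precision is limited by 3 arrays per group, with a median standard error of 0.08. Correlations between arrays were 0.995 to 0.997 within the groups compared and 0.989 to 0.992 between them. The labels' replicate numbers were not used as a block, since same-numbered arrays did not deviate together.

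The 60 gene lists and families, with 2349 measured symbols, and the members were chosen with earlier results of these data known. Genes named are the 25 highest and 25 lowest called changes with no overlap, up to 6 called members per list, any cyclin, E2F, polo-like kinase, topoisomerase or early response gene, and MDM2, CDKN1A, TOP2A, TOP2B and ABCB1, unless said otherwise. Promoters are RefSeq's (GRCh38.p14), the first listed per gene. Alternatives were: only the arrays compared, another normalization or centring, array weights, another variance model, a filter on dim genes, another rule for probe sets, a replicate block, the spread of each array as a covariate, and each array left out.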

Additional observations from a re-analysis of the deposited data

Results flagged for a closer look

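Of the 215 genes named above, 147 are singled out because limma called their level at 48 h different from that at 24 h. Of these, 77 were higher and 70 lower at the later time. Longer exposure to the drug and longer time in culture cannot be told apart in this contrast. Over all 19775 genes 4.37% were higher and 5.34% lower at 48 h than at 24 h. Most named genes were picked for large changes on the 48 h arrays, which also enter this contrast. Their count therefore cannot be set against the share over all genes. Each value below is the mean of the 3 arrays at 48 h minus that of the 3 arrays at 24 h, on the log2 scale. No explanation was tested. Of the p53 targets and arrest genes, those higher at 48 h than at 24 h were TP53INP1 0.70, TRIM22 0.58, CDKN1A 0.56, BIK 0.43, CROT 0.42, TP53I3 0.37, GPX1 0.35, XPC 0.28, MCL1 0.28, PERP 0.26, DDB2 0.26, ZMAT3 0.25 and SESN1 0.18. Lower among the p53 targets and arrest genes at 48 h was MDM4 -0.31. Of the other leading rises, those higher at 48 h than at 24 h were XG 0.92, CAT 0.76, PIK3R3 0.74, SULF2 0.61, COL4A5 0.57, SYTL1 0.56, SLC2A12 0.48, EPPK1 0.45, TUBA1A 0.39 and ATP5IF1 0.37. Of the early response and feedback genes, those higher at 48 h than at 24 h were FOS 1.22, FOSB 0.74, EGR3 0.72, JUNB 0.67, DUSP1 0.65, KLF10 0.60, RGS2 0.58, JUN 0.57, EGR1 0.54, IER5 0.40 and DUSP5 0.40. Lower among the early response and feedback genes at 48 h was DUSP7 -0.51. Of the cyclins, E2F genes and their kinases, those higher at 48 h than at 24 h were CCNG2 0.71 and CCND1 0.45. Lower among the cyclins, E2F genes and their kinases at 48 h than at 24 h were CCNE2 -0.70, RBL1 -0.67, E2F8 -0.55, CCNA2 -0.53, LIN9 -0.42, E2F7 -0.39, CDC25A -0.35, CDKN3 -0.32, FOXM1 -0.28 and CCNB1 -0.27. Lower among the mitotic genes at 48 h than at 24 h were KIF18A -0.63, CENPK -0.61, SPC25 -0.60, NUF2 -0.56, PLK4 -0.55, MKI67 -0.55, CEP55 -0.54, FBXO5 -0.51, NCAPG -0.50, KIF14 -0.49, GAS2L3 -0.47, KIF15 -0.46, KIF11 -0.45, BUB1 -0.42, TUBGCP3 -0.41, PLK1 -0.40 and AURKB -0.32. Of the replication, nucleotide and chromatin genes, the one higher at 48 h was SAMHD1 0.50. Lower among the replication, nucleotide and chromatin genes at 48 h than at 24 h were MCM8 -0.94, POLE2 -0.68, MCM10 -0.64, UHRF1 -0.57, EZH2 -0.53, ATAD2 -0.46, MCM7 -0.45, GINS2 -0.44, TK1 -0.44, MCM5 -0.43, POLA1 -0.42, RRM2 -0.39, PRIM1 -0.37, LMNB1 -0.35, ASF1B -0.34, TMPO -0.26 and PCNA -0.24.

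Lower among the repair and topoisomerase genes at 48 h than at 24 h were PARPBP -0.61, NEIL3 -0.54, RAD51AP1 -0.52, MND1 -0.52, FANCI -0.49, CHEK1 -0.45, BLM -0.44, TOP2A -0.35, BRCA1 -0.25, PARP1 -0.24 and TDP1 -0.21. Of the secreted and antigen genes, those higher at 48 h than at 24 h were CXCL2 0.85, GDF15 0.81, STC1 0.47, IGFBP7 0.47, ISG15 0.36, HLA-C 0.34 and TAP1 0.32. Of the epithelial, mesenchymal and receptor genes, those higher at 48 h than at 24 h were KRT19 0.80, CDH1 0.80, CD24 0.75, AGR2 0.59, CD44 0.52, ELF3 0.40, PDGFRB 0.38, KRT8 0.36, S100A4 0.35 and KRT18 0.27. Lower among the epithelial, mesenchymal and receptor genes at 48 h than at 24 h were VIM -0.34 and GLI2 -0.25. Of the metabolic and stress genes, those higher at 48 h than at 24 h were EPAS1 1.02, MXD1 0.58, ASNS 0.57, XBP1 0.48, ATF4 0.44, GSTT1 0.44, SLC2A1 0.42, CRYAB 0.39, INSIG1 0.38, ABCA1 0.36, MYLIP 0.31, GSTM3 0.30, DHCR7 0.26, TRIB3 0.25 and GSTA4 0.24. Lower among the metabolic and stress genes at 48 h than at 24 h were MT1M -0.55, NQO1 -0.47, HK2 -0.30, FASN -0.27 and SLC7A11 -0.25. Of the lysosomal, ribosomal, RNA exosome, zinc-finger and histone genes, those higher at 48 h than at 24 h were H2AC6 0.69, GABARAPL1 0.59, H1-2 0.53, H2BC4 0.49, H2BC12 0.46, PSAP 0.40, WIPI1 0.39 and DRAM1 0.20. Lower among the lysosomal, ribosomal, RNA exosome, zinc-finger and histone genes at 48 h than at 24 h were UTP20 -0.57, ZBTB2 -0.47, EXOSC8 -0.40, NAT10 -0.39, HEATR1 -0.32 and MRPL1 -0.29.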

How the results depend on the processing

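Over the 16 alternatives that bear on it, the number of genes higher at 48 h ran from 1692 to 2478, the number lower from 1734 to 2932 and the number at least 2-fold higher from 81 to 135. The genes at least 2-fold lower, 8 in the fit as reported, ran from 3 (without 48 h replicate 2) to 13 (without 48 h replicate 3). The contrast of 48 h with 24 h, 1920 genes, gave 565 with only the 6 arrays compared, 2994 with the spread of each array as a covariate, and 1236 (without 48 h replicate 1) to 1929 (without 48 h replicate 3) on leaving out arrays; the smaller fits have fewer arrays to set the spread, and the other cause was not tested. The 203 called genes named kept their call in 199 to 203 cases under each setting that tested all of them; the losses were CCNB2, CCND2 and CCNE1 with the mean of the probe sets, MCL1 with the most variable probe set, and TOP1 with either of these, with only the 6 arrays compared, after a further quantile normalization and on leaving out any array except 48 h replicate 3. Reversals touched only genes that were not called: ABCB1 was 0.046 with its most variable probe set, 0.0045 with the mean of its probe sets and -0.097 to 0.043 on leaving out arrays, and ESR1 was 0.21 with its most variable probe set. PCNA was -0.028 after a further quantile normalization, -0.015 with arrays shifted to 1 median, -0.0033 with array weights, -0.0016 with the spread as a covariate and -0.036 to 0.044 on leaving out arrays, and PGR ran from -0.11 to 0.055. Counts of list members moved by over 1.5 times in 169 cases, mostly among small counts. With the replicate number as a block 2013 genes were higher, 2124 lower, 106 and 8 passed 2-fold, and 1759 differed between 48 h and 24 h. Same-numbered arrays had correlations of deviations of -0.17, 0.19 and -0.29, and differently numbered ones from -0.22 to 0.35. These values give no sign that the numbers pair the cultures, but with 3 arrays per group they cannot exclude it. The depth of an array is not a read count, and 3 arrays per group limit the precision.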
